A study of Mus musculus with 37 samples.

Results

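On day 7 after infection with a pool of 48 factors, some of the mouse embryonic fibroblasts held transcripts of dividing cells, and these proliferating cells are described here. They were chosen by measured counts: a cell was a member when it held at least 1 UMI, a count of a captured transcript, in 5 or more of 9 genes: Top2a, Birc5, Pclaf, Hmmr, Cdc20, Kif23, Ckap2l, Bub1 and Pbk. The rule chose 2314 of 8641 cells, or 26.8% (exact 95% interval 25.8 to 27.7%, counting error only). The fibroblasts had the ICR background and were infected with retroviral vectors for the pool, which includes the cell cycle inhibitor Cdkn1a, and the polyadenylated RNA of single cells was then captured on barcoded beads in droplets (Drop-seq). All 37 libraries are technical replicates of 1 biological replicate that received the same pool, and the group holds no untreated cells. Every comparison is therefore between cells of the same culture, and every p-value measures the spread between libraries of that culture. A count of a pool factor cannot tell a delivered transcript from the cell's own. Of the fibroblast markers, such as Col1a1 and Vim, 3 or more were detected in all 2165 members that entered the comparison and in 2163 of the 2165 cells they were compared with. Since 3 or more smooth muscle genes were also detected in every one of these cells, this count does not tell the types apart.

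A dividing cell first copies its DNA and then separates the copies, and different genes serve the stages. Replication genes are switched on by E2F factors as the cell leaves G1. Mitotic genes follow later, under complexes that include B-MYB and FOXM1 and that act at promoter elements named CHR (cell cycle genes homology region) and CCAAT. Cyclin-dependent kinases drive these steps, and the INK4 proteins (p15, p16, p18 and p19) and the CIP/KIP proteins (p21, p27 and p57) restrain the kinases. Embryonic fibroblasts in culture are known to gather such inhibitors with time and to stop dividing.

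Most of the 9 genes of the rule act in mitosis. Top2a untangles sister chromatids, Birc5 is the survivin subunit of the chromosomal passenger complex, and Pclaf binds the replication clamp PCNA. Hmmr and Ckap2l are spindle proteins, Cdc20 activates the anaphase-promoting complex, Kif23 is a motor of the dividing bridge, Bub1 is a checkpoint kinase and Pbk a mitotic kinase. Promoter windows of 8 of the 9 genes were in the RefSeq table (GRCm38.p6), and they were searched on both strands for CHR (TTTGAA or TTCGAA), for E2F (TTTCCCGC, TTTGGCGC, TTTGCCGC or TTTCGCGC) and for CCAAT. The sequences below show the motifs in windows of the rule, of mitosis and of replication. They run from 250 bases before the start of transcription to 30 bases after it, on the gene's strand, with every motif match in capitals, read on either strand and merged where matches overlap. Top2a (chr11:99024160-99024439, minus strand) and Cdc20 (chr4:118437314-118437593, minus strand) are rule genes, Cdk1 (chr10:69352883-69353162, minus strand) is the kinase of mitosis and Mcm6 (chr1:128359676-128359955, minus strand) is a subunit of the replication helicase.
Top2a: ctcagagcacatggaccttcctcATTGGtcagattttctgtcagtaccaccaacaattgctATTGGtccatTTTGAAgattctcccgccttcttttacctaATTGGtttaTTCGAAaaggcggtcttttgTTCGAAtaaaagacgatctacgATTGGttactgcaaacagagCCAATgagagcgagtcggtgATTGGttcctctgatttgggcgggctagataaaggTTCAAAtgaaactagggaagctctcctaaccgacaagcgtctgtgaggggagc
Cdc20: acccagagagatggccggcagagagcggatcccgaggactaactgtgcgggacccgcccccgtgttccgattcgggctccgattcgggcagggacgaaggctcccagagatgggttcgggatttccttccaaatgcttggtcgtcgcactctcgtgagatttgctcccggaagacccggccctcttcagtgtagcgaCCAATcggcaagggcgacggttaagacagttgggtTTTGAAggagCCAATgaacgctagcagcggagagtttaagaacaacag
Cdk1: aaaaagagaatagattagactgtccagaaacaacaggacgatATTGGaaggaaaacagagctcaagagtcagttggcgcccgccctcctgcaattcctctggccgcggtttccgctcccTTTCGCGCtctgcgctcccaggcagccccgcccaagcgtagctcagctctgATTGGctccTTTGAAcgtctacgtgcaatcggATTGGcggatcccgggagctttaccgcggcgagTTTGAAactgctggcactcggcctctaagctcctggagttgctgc
Mcm6: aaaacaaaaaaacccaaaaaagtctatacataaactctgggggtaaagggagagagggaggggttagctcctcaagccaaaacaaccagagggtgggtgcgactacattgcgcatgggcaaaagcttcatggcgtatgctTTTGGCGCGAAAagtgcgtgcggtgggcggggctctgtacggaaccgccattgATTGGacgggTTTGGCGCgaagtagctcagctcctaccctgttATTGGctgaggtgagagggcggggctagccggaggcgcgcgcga
The Top2a window held 4 CHR and 6 CCAAT matches, the Cdc20 window 1 and 2, and the Cdk1 window 2 and 3 with 1 E2F match. The Mcm6 window held no CHR match, 3 E2F matches and 2 CCAAT matches. These windows were chosen to show the motifs.

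Over all 32851 windows of 300 bases in the table, 19.2% held a CHR match, 2.26% an E2F match and 37.4% a CCAAT match. Of the 8 windows of rule genes, 6 held a CHR match and 7 a CCAAT match, and Pclaf alone held an E2F match. The 108 windows of genes in the mitosis lists (kinases, kinetochore, spindle, condensation and mitotic exit) held a CHR match in 60.2% and an E2F match in 8.33%. The 79 windows of the replication lists (licensing, fork, nucleotide supply and chromatin assembly) showed the other pattern, with CHR in 20.3% and E2F in 29.1%. CCAAT was found in 73.1% and 58.2% of them. Of 20 windows of the skeletal muscle list, 0 held a CHR match, 1 an E2F match and 4 a CCAAT match. A match is a run of letters and not a measured binding site.

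The number of rule genes detected per cell had a peak at each end. It was 0 in 2585 cells, 1 in 1932, 2 in 1006, 3 in 458 and 4 in 346, and then 5 in 330, 6 in 367, 7 in 406, 8 in 486 and all 9 in 725 cells. Cells just outside the rule, with 4 of the genes, held 87.7 CPM (counts scaled to a total of 1e6) of Mki67 and 81.2 CPM of Cdk1 over all their counts, and cells just inside, with 5, held 162 and 141 CPM. The replication helicase gene Mcm3 stood at 69.9 CPM in the former and 67.8 CPM in the latter, whose median totals were 7131 and 6274.5 UMIs. Members were deeper than other cells, with a median of 10495.5 UMIs against 7500 in the 4517 cells with 0 or 1 of the genes. When every cell with enough counts was thinned to 5000 UMIs, 1554 of 6775 cells (22.9%) met the rule, and 1866 cells were too shallow for this.

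**Figure D1:**
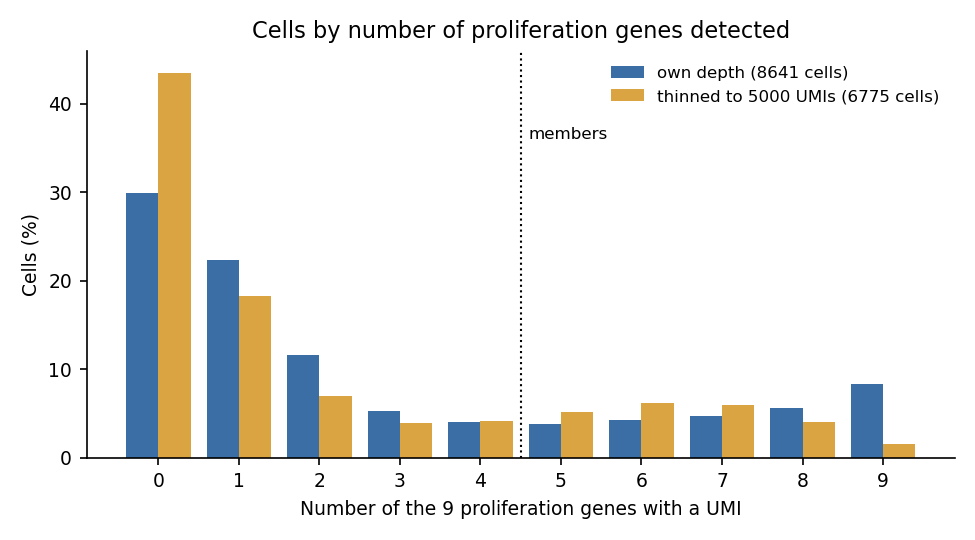
Share of cells (%, vertical axis) with 0 to 9 of the 9 proliferation genes detected (horizontal axis), for 8641 cells at their own depth and for 6775 cells thinned to 5000 UMIs. The dotted line marks the rule, with 2314 members to its right at own depth. The bars are lowest around 4 to 6 genes at own depth and rise to 725 cells at 9, a peak that the thinned cells show at 6 and 7 genes instead.

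Members were found in all 36 libraries that remained after technical replicates 4 and 6, which shared 59 barcodes, were joined. Per library, 15.8% was the lowest share of members, 26.5% the median and 36.3% the highest (26.7 ± 5.16%, SD, n = 36), from 14 to 146 cells. By the library names the labels give, the share was 26.8% in the 15 libraries called JD, 26.1% in the 15 called PZ47-PZ48 and 28.6% in the 6 called PZ58. The libraries also fell into a class of 10 with at least 100 CPM of the ribosomal protein gene Rps27a and a class of 26 below it, with shares of 25.7% and 27.2%. Between these sets of libraries the share differed by less than the SD between single libraries.

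For the comparison each member was paired with a cell of the same library that held 0 or 1 of the rule genes and had nearly the same total. Pairs were found for 2165 members, with median totals of 9907 UMIs in members and 9684 in matched cells, and the 149 members left without a partner were deep cells with a median of 52288. The levels of the rule genes in the pairs describe the choice and carry no test. Top2a lay at 553 CPM in the lowest, 855 in the median and 1219 in the highest library of members, against 0, 13.5 and 32.0 CPM in matched cells. Pbk, the lowest of the 9, lay at 64.2, 118 and 223 CPM against 0, 0.507 and 8.05 CPM. No library of matched cells reached a library of members for any of the 9 genes.

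A UMI in a droplet can come from free RNA, and differentiated muscle cells are known to leave the cycle. Cells with 10 or more genes of the skeletal muscle list, a limit set after the data were seen, numbered 185, with a median total of 11408 UMIs. Of these, 24.3% held a Top2a UMI and 20.0% a Mki67 UMI, against 94.0% and 90.2% of members and 13.3% and 7.24% of cells with 0 or 1 rule gene. The shares in muscle cells are no clean background, since 26 of the 185 (14.1%) were themselves members by the rule, and these 26 had a median total of 32078 UMIs. Whether those 26 barcodes hold more than 1 cell was not tested.

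Of 15808 genes tested without the rule genes, 3341 were higher in members (21.1%) and 3990 lower (25.2%), together 46.4% of them, at an adjusted p under 0.05 by edgeR's quasi-likelihood test with the library as a block. The median log2 fold change over all of them was -0.06. A difference of at least 2-fold was called higher for 679 genes (4.3%) and lower for 632 (4%). For 226 genes (1.43%) the libraries of members and of matched cells did not overlap. Since the rule picks cells by mitotic genes, genes that vary with them from cell to cell had to differ, and their counts describe the members rather than show anew that they divide.

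Genes of mitosis stood far above the matched cells. Mki67, which coats mitotic chromosomes, lay at 257 CPM in the lowest library of members, 400 in the median and 610 in the highest, against 0, 5.12 and 18.2 CPM in matched cells. The groups did not overlap, and Mki67 was higher by 5.97 ± 0.079 on the log2 scale (SE; adjusted p = 3.46e-50, edgeR). Among the named genes only Gm14024 differed more (6.67), and its exons overlap those of the rule gene Ckap2l. All 21 genes of mitotic kinases and cyclins were higher, with a median log2 fold change of 3.99, where 21.1% of all tested genes were called higher. Cdk1, the kinase that starts mitosis, lay at 177, 359 and 543 CPM (lowest, median, highest library) against 13.6, 28.1 and 55.9 CPM, and was higher by 3.73 ± 0.062. Ccnb2, a cyclin partner of Cdk1, was higher by 4.79 and Ccna2, a cyclin of S and G2 phase, by 2.98. Exons of Ccna2 overlap those of Exosc9, and strand use was not stated, so its value may hold counts of its neighbour.

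All 27 genes of the kinetochore and centromere were higher as well, with a median of 4.04, where 21.1% of all tested genes were higher. Cenpe, a motor that carries chromosomes to the spindle equator, was higher by 5.28 and Cenpa, the histone variant of centromeres, by 4.89. Nuf2 and Knl1, which tie kinetochores to microtubules, were higher by 5.63 and 5.54. All 31 spindle and cytokinesis genes were higher, with the highest list median, 4.68. Among these, the spindle motor Kif11 lay at 72.9, 105 and 164 CPM in members against 0, 1.62 and 7.99 CPM in matched cells, a difference of 5.86 ± 0.12. Prc1, which bundles the midzone microtubules, was higher by 5.06 and Cep55, which acts at the final cut between daughter cells, by 5.53. The 17 condensation genes were all higher, with a median of 2.26. Smc2 and Smc4, the core of condensin, had the smallest p after Mki67 (3.74 ± 0.054 and 2.63 ± 0.038). Of 14 genes of mitotic exit, 12 were higher and 2 were not called, with a median of 1.60, the lowest of the mitosis lists. The securin gene Pttg1 was higher by 4.26 and the inhibitor of the anaphase-promoting complex Fbxo5 by 4.99.

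**Figure D2:**
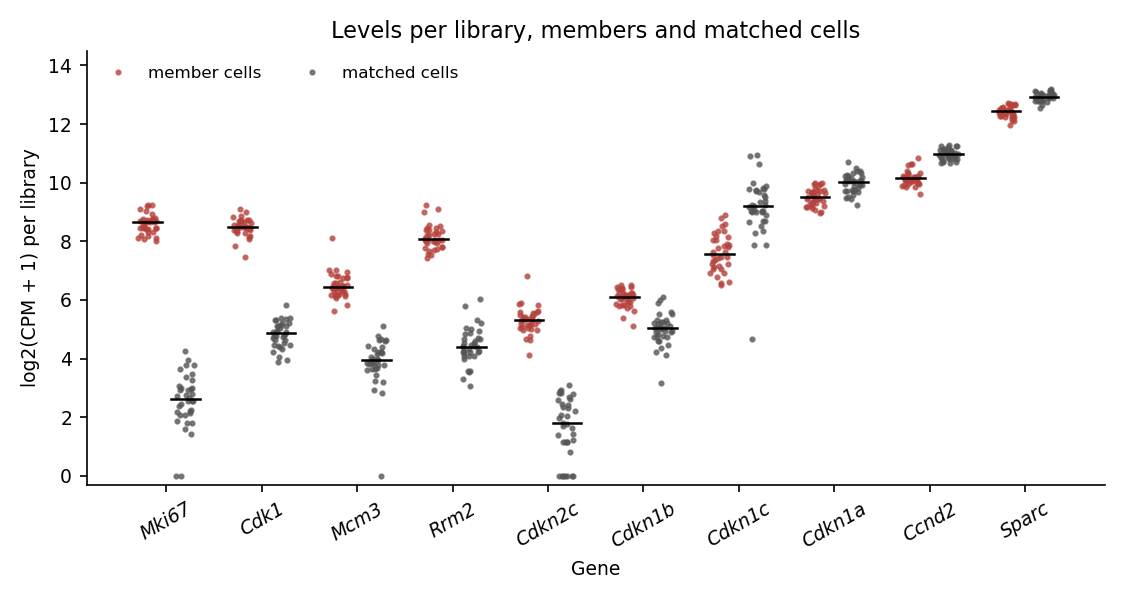
Levels of 10 genes as log2(CPM + 1) per library (vertical axis), with 1 point per library for the summed member cells and 1 for the summed matched cells, and black lines at the medians of 36 libraries. Mki67, Cdk1, Mcm3, Rrm2 and Cdkn2c do not overlap between the sets, Cdkn1b is mostly higher in members, and Cdkn1c, Cdkn1a, Ccnd2 and Sparc are mostly lower.

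Genes of DNA replication were higher too, with list medians below those of the kinase, kinetochore and spindle lists and near those of condensation and mitotic exit. All 22 licensing genes (median 2.23), 26 fork genes (median 1.94), 16 genes of nucleotide supply (median 1.48) and 17 of chromatin assembly (median 2.25) were called higher. Among all tested genes 21.1% were. Gmnn, the inhibitor that keeps origins from firing again, was higher by 3.44 and Dbf4, the activating subunit of the Cdc7 kinase, by 2.77. Mcm6, whose promoter is shown above, lay at 56.2, 108 and 327 CPM in members against 10.2, 27.3 and 46.6 CPM in matched cells, without overlap, and was higher by 2.09 ± 0.081. At the fork, the checkpoint protein Clspn was higher by 4.73 and the primase subunit Prim1 by 3.71. Both subunits of ribonucleotide reductase, which makes the DNA building blocks, were higher: Rrm2 by 3.72 and Rrm1 by 2.40. Tyms, the enzyme that makes thymidylate, was higher by 2.53. Of chromatin genes, Ezh2, the Polycomb methyltransferase, was higher by 2.25 and the histone chaperone Nasp by 2.06.

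Of 22 genes of homologous recombination, which repairs breaks with the sister copy, 21 were higher and 1 was not called, with a median of 2.52. Among all tested genes 21.1% were higher. Rad51ap1, which aids strand exchange, lay at 26.5, 51.7 and 78.0 CPM in members against 0, 1.73 and 7.99 CPM. The helicase gene Blm was higher by 3.16. Rad54l, singled out after its value was seen, was called higher by 0.34 and its exons overlap those of Lrrc41.

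The drivers of the G1/S step did not move as 1 group. Of 20 genes, 13 were higher, 3 lower and 4 not called, with a median of 0.70. Over all tested genes, 21.1% were higher and 25.2% lower. The E cyclins, which drive entry into S phase, were higher: Ccne2 lay at 62.4, 107 and 327 CPM in members against 7.73, 20.1 and 35.8 CPM in matched cells (2.43 ± 0.08), and Ccne1 was higher by 1.66. Foxm1, the factor that drives mitotic genes, was higher by 4.15. The 3 lower genes, named after their values were seen, belong to the D cyclins and their kinases. Ccnd2 lay at 774, 1131 and 1826 CPM in members against 1633, 2010 and 2480 CPM in matched cells, lower in 36 of 36 libraries by -0.80 ± 0.038. Cdk6 differed by -0.48 and Ccnd3 by -0.32, while Ccnd1 was not called. Because Ccnd2 is abundant, the summed level of the list was lower in members in 34 of 36 libraries.

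The inhibitors of the cycle held both higher and lower genes. Of 22 genes of the list, 6 were higher, 12 lower and 4 not called, with a median of -0.29. Of all tested genes 21.1% were higher, a share near that of the list, and 25.2% lower. Cdkn2c, which encodes p18, lay at 16.6, 38.9 and 112 CPM in members against 0, 2.46 and 7.57 CPM in matched cells and was higher by 3.59 ± 0.14 (adjusted p = 2.02e-28, edgeR). Cdkn2d, which encodes p19INK4d, was higher by 1.86 in 36 of 36 libraries, and Cdkn1b, which encodes p27, by 1.00 in 35 of 36. Rbl1, the pocket protein p107, was higher by 2.34, and the repressor-type factors E2f4 and E2f5 by 0.31 and 0.19.

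The other genes of the same families were lower. Cdkn1c, which encodes p57, lay at 89.9, 191 and 480 CPM in members against 24.5, 588 and 1979 CPM in matched cells. The ranges overlapped, and Cdkn1c was lower in 34 of 36 libraries by -1.58 ± 0.14 (adjusted p = 5.35e-14, edgeR). Its exons overlap those of Gm44732. Cdkn2b (p15) lay at 73.8, 144 and 230 CPM against 128, 261 and 636 CPM, lower in 35 of 36 libraries by -0.87 ± 0.061. Cdkn2a (p16 and p19ARF) was lower by -0.74 in 34 of 36 libraries. Cdkn1a (p21), which is also a factor of the pool, lay at 499, 727 and 1026 CPM against 605, 1045 and 1668 CPM, lower in 34 of 36 libraries by -0.47 ± 0.041. Genes linked with rest and growth arrest fell too, among them Gas6 by -0.88, Tob1 by -0.79, Ccng2 by -0.57 and Btg2 by -0.38. The pocket protein genes Rb1 and Rbl2, the growth arrest gene Gas1 and Klf4 were not called, with -0.01, -0.23, 0.08 and -0.18.

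Targets of p53 were more often lower than higher. Of 22 genes, 1 was higher (21.1% of all tested genes were higher), 11 lower (25.2% of all tested genes were lower) and 10 not called, with a median of -0.14. Trp53inp1, a stress protein, fell by 0.71, Perp by 0.48 and the death receptor gene Fas by 0.45, each on the log2 scale. The 1 higher gene, Gdf15, a secreted stress factor named after its value was seen, was higher by 0.70. Of 22 secreted factors linked with senescence, 2 were higher and 10 lower, with a median of -0.25. Igfbp5, a binding protein of insulin-like growth factors, lay at 25.0, 133 and 655 CPM in members against 88.9, 438 and 1131 CPM, lower in 34 of 36 libraries by -1.57 ± 0.14. Serpine2, a protease inhibitor, was lower by -0.73 and Igfbp7 by -0.47, each in 35 of 36 libraries. The 2 higher genes, Ccl2 and Timp1, differed by 0.50 and 0.29.

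Of 20 interferon response genes, 11 were lower and 2 higher, with a median of -0.32. B2m, the light chain of MHC class I, was lower by -0.46 in 35 of 36 libraries. Of 16 immediate early genes, 6 were lower and 0 higher, led by Dusp1 at -0.62, Fos at -0.52 and Jund at -0.47. Of 7 genes of the mitochondrial genome, 2 were lower and 5 not called, with values between -0.14 and 0.03. Over all tested genes, 25.2% were lower and 21.1% higher.

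Genes of growth stood higher. Of 20 ribosome biogenesis genes, 17 were higher and 0 lower, with a median of 0.47. Among all tested genes 21.1% were higher and 25.2% lower. Ncl, the nucleolar protein nucleolin, lay at 1296, 1673 and 2497 CPM in members against 571, 1026 and 1459 CPM in matched cells, and it was higher in 36 of 36 libraries by 0.77 ± 0.033. Dkc1, which forms pseudouridine in ribosomal RNA, was higher by 1.15. Of 20 splicing genes, 19 were higher and 1 was not called, with a median of 0.77. Lsm2, a core protein of spliceosomal RNA, was higher by 1.53. The splicing factor Srsf7 lay at a median of 254 CPM in members and 120 CPM in matched cells. These differences were far smaller than those of mitosis, yet Ncl, Dkc1, Lsm2 and Srsf7 were higher in 36 of 36 libraries.

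**Figure D3:**
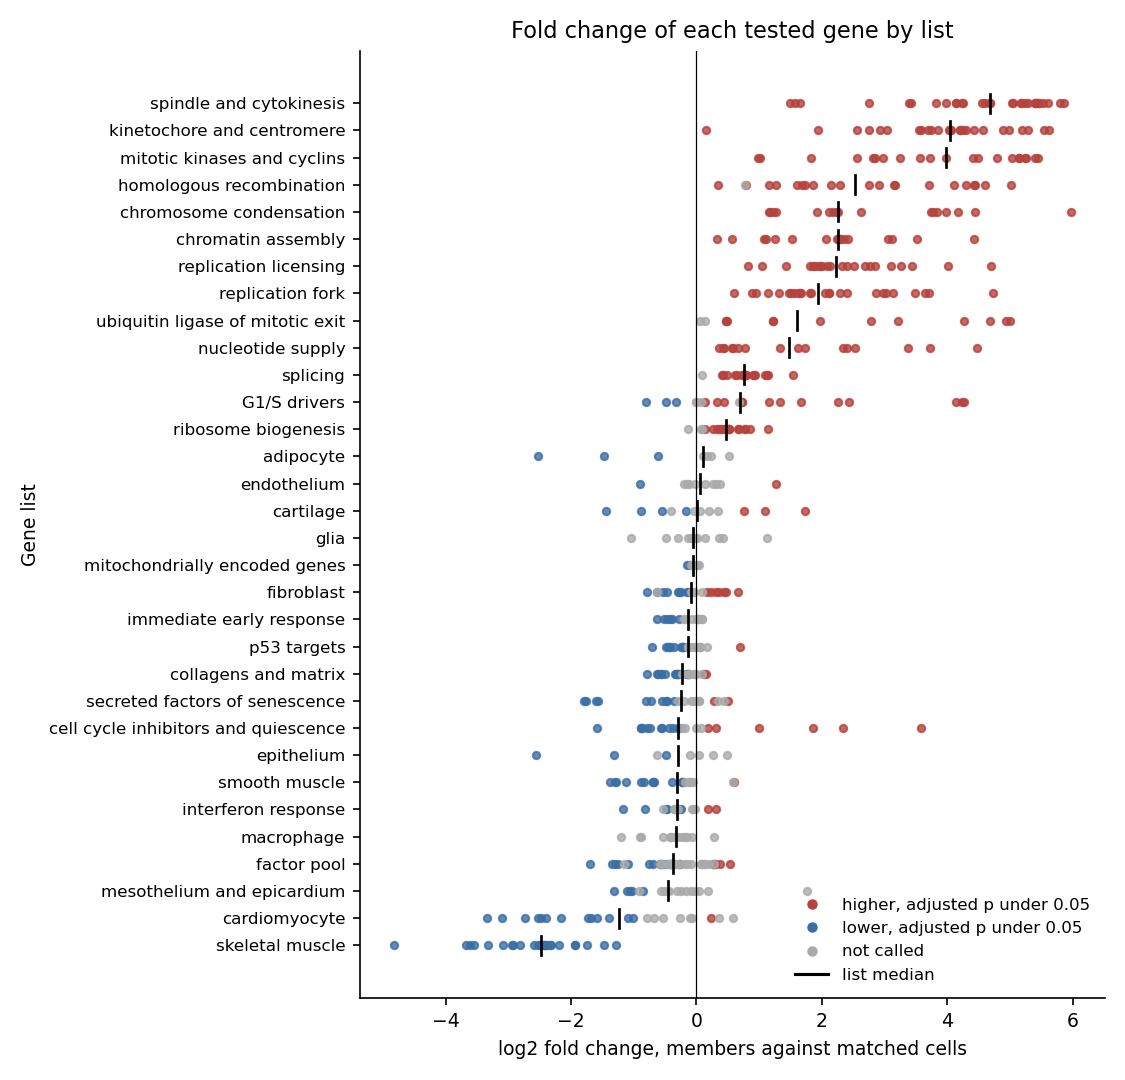
Log2 fold change of each tested gene, members against matched cells (horizontal axis), by gene list (vertical axis, ordered by list median). Red points were higher and blue points lower at an adjusted p under 0.05, grey points were not called, and black bars are list medians, from 4.68 for spindle and cytokinesis to -2.48 for skeletal muscle.

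The matrix that fibroblasts secrete was lower in members. Of 25 genes of collagens and matrix, 16 were lower and 2 higher, with a median of -0.23, and their summed level was lower in 36 of 36 libraries. Sparc, which binds collagen, lay at 4028, 5619 and 6733 CPM in members against 6054, 7791 and 9322 CPM in matched cells, lower in every library by -0.51 ± 0.033. Thbs1 (thrombospondin) was lower by -0.56 and Loxl2, which cross-links collagen, by -0.61. Markers of fibroblasts went both ways, with 7 of 21 higher and 9 lower, where 21.1% of all tested genes were higher and 25.2% lower. The receptor gene Pdgfra was higher by 0.66, and the matrix gene Dcn was lower by -0.79. The 2 higher genes of the matrix list were Col6a1 and Col6a2, at 0.11 and 0.15.

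Muscle genes were lower in members. All 25 tested genes of the skeletal muscle list were lower, with a median of -2.48, where 25.2% of all tested genes were lower. Myh3, the embryonic myosin, lay at 0, 1.22 and 15.9 CPM in members against 0, 41.2 and 479 CPM in matched cells, lower in 28 of 36 libraries by -4.83 ± 0.29 (adjusted p = 4.73e-20, edgeR). Myog, the factor that starts muscle differentiation, lay at 0, 2.44 and 11.9 CPM against 0, 19.4 and 222 CPM (-3.61 ± 0.27). The difference rests on few cells. Of the matched cells, 73 of 2165 held 10 or more genes of the list, and these gave 78.6% of its counts there, while 18 of 2165 members did so and gave 31.3%. Cells that held 3 or more genes of the skeletal muscle, mesothelium and epicardium, glia or macrophage list were left out in another setting. This removes cells rich in muscle genes by definition and keeps those with only cardiomyocyte or cartilage genes. Without these cells of other types, 1 of 21 genes was lower and the median was -0.13.

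Of 22 cardiomyocyte genes, 13 were lower and 1 higher, with a median of -1.24. Most of the named ones are also used by embryonic skeletal muscle, such as Actc1 (-3.34), Myl4 (-2.48) and Tnnc1 (-2.40). Without cells of other types, 2 of 16 cardiomyocyte genes were lower and 1 higher, with a median of -0.31. There Actc1 turned to 0.53, and Myl4 (-0.13) and Tnnc1 (-0.34) were not called. Of 20 smooth muscle genes, 13 were lower, among them Des at -1.28 and Hspb1 at -0.69, and Smtn was the 1 higher, at 0.61. Of 18 genes of mesothelium and epicardium, 5 were lower, a share near the 25.2% of all tested genes, and 0 higher, with Nkain4 at -1.31 and Wt1 at -1.03. Without cells of other types, 2 of 13 were lower. Of 12 cartilage genes, 3 were higher and 4 lower, where 21.1% of all tested genes were higher and 25.2% lower. Matn3 (1.73) and Col2a1 (0.76) were among the former and Col11a2 (-1.44) among the latter. None of 12 glial and 15 macrophage genes was called. Of 10 endothelial genes 1 was higher and 1 lower, of 8 epithelial genes 3 were lower, and of 7 adipocyte genes 3 were lower.

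Counted by cells, 10 cell type lists other than fibroblast were compared by the share of cells with 3 or more of their genes (a sign-flip permutation test over 36 libraries, 2-sided, adjusted over the 10). The share was higher in members for 1 list (10%) and lower for 3 (30%). Cartilage genes were found in 16.9% of members and 13.3% of matched cells, a difference of 3.61 points (adjusted p = 4e-04, permutation test, higher in 27 and lower in 7 libraries). Skeletal muscle genes were found in 18.5% and 22.2% (-3.76 points, adjusted p = 0.0355), cardiomyocyte genes in 30.1% and 33.5% (-3.40, adjusted p = 0.0292) and those of mesothelium in 6.91% and 9.32% (-2.41, adjusted p = 0.0355). These are small shifts beside the SD of the difference between libraries, between 4.82 and 8.37 points for the 4 lists. None of the 3 lower calls held without a limit on depth or against cells with 0 rule genes. None held in any of the 3 series or in either Rps27a class. The cardiomyocyte call was also lost without cells of other types. That setting leaves out every cell with 3 or more genes of the skeletal muscle or mesothelium list, so it could give no call for those. With pairs thinned to the lower total of each pair, 1 list was higher and 3 were lower. The higher call for cartilage was lost without cells of other types, in PZ47-PZ48, in PZ58 and with high Rps27a. In PZ58, 6 libraries allow no smaller p than 0.03125 by the permutation test. After adjustment over the 10 lists, these 4 lists could not be called there unless other lists were too.

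The factors of the pool were read as the share of cells with at least 1 UMI of the factor. Of 43 factors with a row in the tables, 7 were detected in more members than matched cells (16.3%) and 16 in fewer (37.2%) by the permutation test, adjusted over the 43. Smarcd3, a subunit of the BAF remodelling complex, was found in 19.0% of members in the lowest, 48.3% in the median and 75.0% in the highest library, against 35.7%, 59.1% and 74.6% of matched cells. The ranges overlapped, but the share was lower in 31 of 36 libraries, by -10.9 points (adjusted p = 9.56e-05). Lbh, a transcription cofactor, fell by 9.85 points (35.7%, 69.6% and 87.8% against 58.1%, 78.6% and 91.7%) and Mef2a, a MADS-box factor of muscle, by 6.74 points. Mef2d, Rarg and Gata6 differed by -6.00, -5.62 and -5.24 points.

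Some factors found in few cells were lower as well, while others such as Foxn4, Hand1 and Tbx5 were not called. Mesp1, an early factor of the heart lineage, was found in 3.88% of members and 7.83% of matched cells, Msx1 in 3.26% and 6.92%, Isl1 in 3.05% and 6.15% and Myod1, the master factor of skeletal muscle, in 2.24% and 4.95%. Gata4 stood at 1.24% and 3.13%. Pou6f1, Hey1, Nkx2-5 and E330017L17Rik made up the rest of the lower ones with differences between -1.50 and -2.93 points. Cdkn1a was found in most cells of both sets, in 89.6% of members and 93.2% of matched cells (-3.60 points, adjusted p = 0.00605).

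The 7 factors found in more members were Notch1, Hdac2, Nr2f2, Tcf3, Hdac1, Xiap and Pou2f1. Notch1, the receptor, was found in 9.09%, 27.0% and 44.7% of members (lowest, median, highest library) against 8.51%, 16.6% and 28.8% of matched cells, a difference of 8.89 points (p = 1e-05, the smallest that 100000 permutations can give, adjusted p = 8.6e-05). The histone deacetylase genes Hdac2 and Hdac1 were higher by 8.48 and 7.59 points, the nuclear receptor Nr2f2 by 7.84, the E protein gene Tcf3 by 7.64 and the caspase inhibitor Xiap by 5.73. By summed counts Hdac2 and Pou2f1 were not called (0.14 and 0.20 on the log2 scale). Of 42 factors tested by counts, 5 were higher and 17 lower, where 21.1% of all tested genes were higher and 25.2% lower. A member held 9.93 ± 1.70 different factors and a matched cell 10.2 ± 1.48 (SD, n = 36 libraries). The difference of -0.31 (p = 0.00283, permutation test) turned to 0.0313 when pairs were made without a limit on depth. Those pairs had mean totals of 16694.4 UMIs in members and 14349.6 in matched cells, against 13858.6 and 13535.5 in the main pairs. With the main pairs thinned to the lower total of each pair, the difference was -0.40 (p = 1.2e-04, permutation test). The part of depth in the turn without a limit was not tested.

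**Figure D4:**
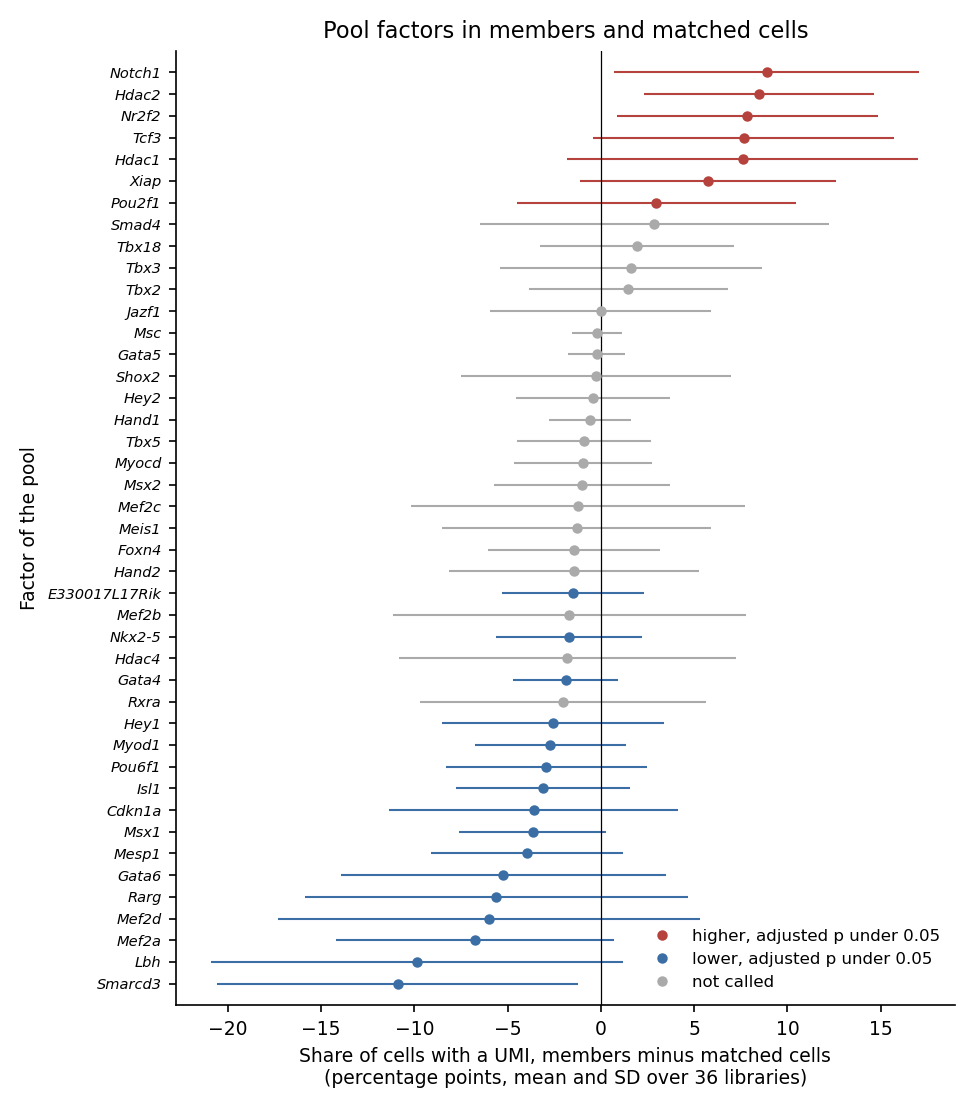
Share of cells with at least 1 UMI of each pool factor, members minus matched cells, in percentage points (horizontal axis, mean and SD over 36 libraries), for 43 factors (vertical axis). Red points were higher and blue points lower at an adjusted p under 0.05. The values run from 8.89 for Notch1 to -10.9 for Smarcd3, and most SD bars cross 0.

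The members were not alike. Within each library they were put in 3 equal groups by the share of mitosis-list counts among the counts of the mitosis and replication lists together, without the 9 rule genes. The median share was 50.8% in the replication-leaning group, 64.4% in the middle group and 76.6% in the mitosis-leaning group. The lists set this order, so their genes carry no test: Ccnb1 stood at 60.0 ± 32.5, 133 ± 49.1 and 297 ± 97.8 CPM in the groups (SD, n = 36 libraries), Cenpf, a kinetochore protein, at 92.8 ± 60.3, 288 ± 111 and 831 ± 235 CPM, and Cdc6, a loader of the helicase, at 46.6 ± 21.8, 13.6 ± 10.6 and 5.33 ± 6.70 CPM. Median totals were 12196, 10170 and 9120 UMIs, and the part of depth in the order was not tested.

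Genes outside those lists showed where the groups differ. The E cyclin Ccne1 stood at 173 ± 62.8 CPM in the replication-leaning group, 82.9 ± 50.7 CPM in the middle and 47.9 ± 38.6 CPM in the mitosis-leaning group. In the same order Ccne2 stood at 195 ± 86.3, 73.2 ± 56.6 and 35.6 ± 23.5 CPM and E2f1 at 47.2 ± 17.3, 27.3 ± 15.5 and 19.2 ± 9.97 CPM, so all 3 were highest where replication genes lead. Of the rule genes, Cdc20 stood at 122 ± 42.8, 267 ± 79.7 and 546 ± 108 CPM and Hmmr at 154 ± 62.2, 312 ± 78.7 and 577 ± 95.4 CPM, while Pclaf was nearly level at 328 ± 102, 330 ± 100 and 311 ± 101 CPM. In its promoter window Pclaf held an E2F match and no CHR match. Birc5 held neither motif and stood at 258 ± 84.3, 413 ± 81.8 and 519 ± 97.2 CPM. Pbk, which had no window, stood at 109 ± 41.6, 134 ± 49.2 and 139 ± 66.9 CPM. A link between motif and level was not tested. Cdkn2c, the inhibitor that was higher in members, stood at 26.2 ± 14.1, 31.7 ± 20.9 and 61.3 ± 36.1 CPM, and Ccnd2 at 1350 ± 319, 1102 ± 195 and 976 ± 208 CPM. Cdkn1a stood at 831 ± 235, 787 ± 298 and 732 ± 270 CPM and Cdkn1c at 226 ± 186, 222 ± 147 and 209 ± 187 CPM, differences within the spread of libraries. The groups carry no test.

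**Figure D5:**
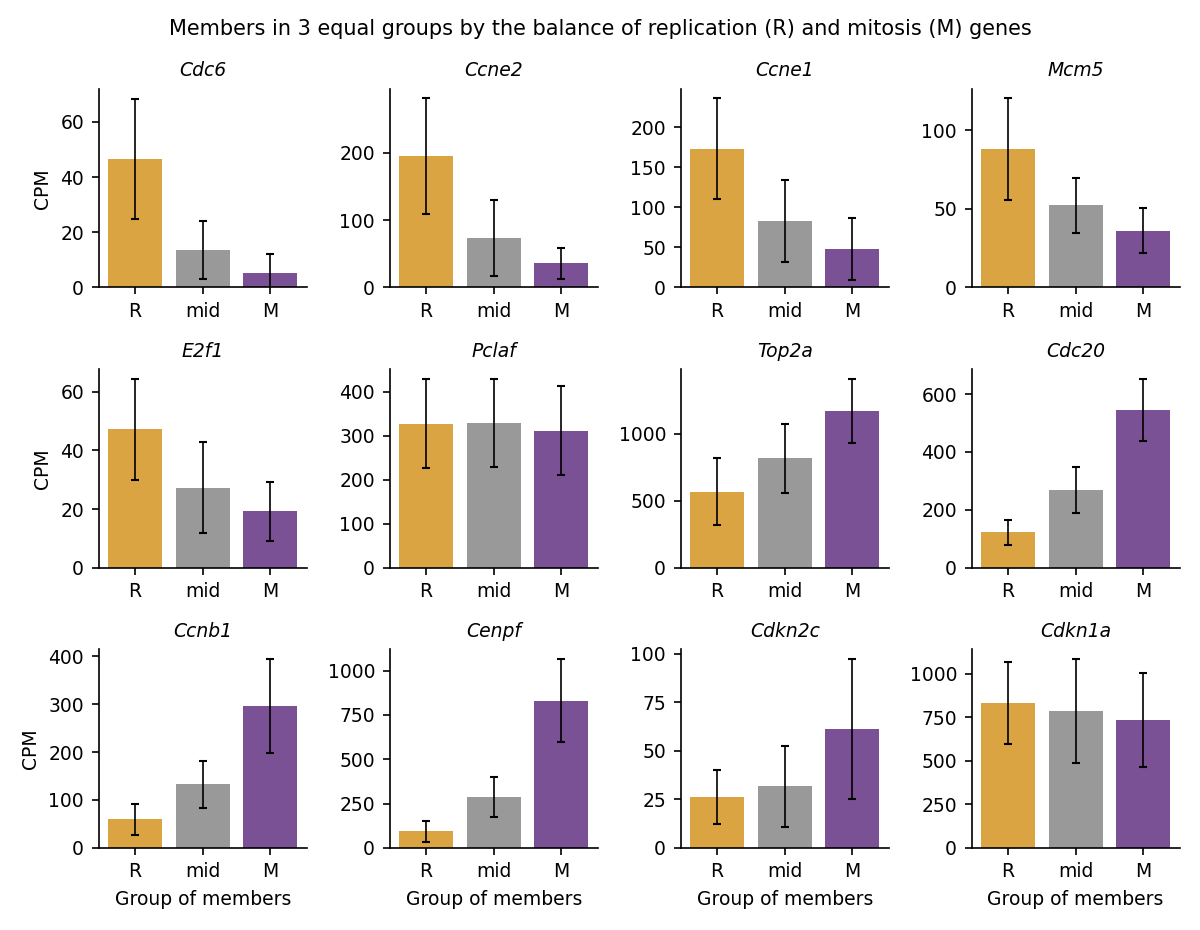
Mean level in CPM (vertical axes, bars from 0, SD over 36 libraries) of 12 genes in 3 groups of the members, from replication-leaning (R) through middle (mid) to mitosis-leaning (M). Cdc6, Ccne2, Ccne1, Mcm5 and E2f1 are highest in R, Top2a, Cdc20, Ccnb1, Cenpf and Cdkn2c in M, and Pclaf and Cdkn1a are nearly level.

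Levels across the number of rule genes were also read in cells thinned to 5000 UMIs. The mitosis lists summed to 2792 CPM in cells with 0 rule genes, 13508 CPM in cells with 5 and 24179 CPM in cells with 9. The replication lists summed to 3324 CPM at 0, 9408 CPM at 6 and 8783 CPM at 9, with no gain from 6 to 9 genes. Skeletal muscle genes summed to 1838 CPM at 0 and 187 CPM at 9. Cdkn1a stood at 992 CPM at 0, 601 CPM at 4 and 860 CPM at 9, with its lowest value in cells near the limit of the rule. Cdkn2c stood at 2.64 CPM at 0 and 71.7 CPM at 9. These levels are over pooled cells and carry no error.

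Few genes differed between the 3 series of libraries. By a test of the interaction of member state and series, 2 of 15808 genes (0.0127%) differed between series after adjustment (edgeR). At an unadjusted p under 0.05 there were 566, fewer than this threshold passes on average where nothing differs. The 2 genes, Star and Cyp11a1, both of steroid synthesis, were carried by few cells and are described at the end. Within the 10 libraries with high Rps27a, 2064 genes were higher and 1929 lower, and within the other 26, 3086 and 3157. Fewer libraries enter each of these fits.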

How the data were processed

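The deposited files hold raw counts per gene and cell barcode of each Drop-seq library, with no normalization. The build mm10 and the tools STAR 2.5.3a, featureCounts 1.5.3, UMI-tools and bcl2fastq 2.17.1.14 are named, per the submitters' processing notes. The annotation release, the strand setting and the filter on cells are not given in the sources used here. Counts are called UMIs here because those notes name UMI-tools. Of 27998 Ensembl rows, 27645 matched a symbol, and the EGFP row held 0 counts. Positions and exon overlaps are from GENCODE M21 (GRCm38), and 39 of 140 genes chosen by the naming rule overlap exons of another gene. Besides those marked above, they include Ccne2, Foxm1, Prc1, Dkc1, Igfbp7, Smarcd3 and Mef2a. Their values may hold counts of a neighbour.

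Of 8730 barcodes, 89 copies of a barcode found in more than 1 library were dropped (the deeper copy was kept), which left 8641 cells with 1541 to 208623 UMIs, a median of 8513 and 120363659 in all. Technical replicates 4 and 6 were joined because they shared 59 barcodes, while no other pair shared more than 4. No doublet caller was run. A setting without the deepest 5% of cells per library stands in its place and need not remove doublets of ordinary depth.

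Members were matched 1 to 1 within library, without replacement, to the nearest total within 0.2 on the log2 scale. Counts of members and of matched cells were summed per library, and genes with at least 20 counts were tested with edgeR 4.0.16 (R 4.3.3; TMM scaling, quasi-likelihood test, library as a block, Benjamini-Hochberg adjustment, threshold 0.05). Library numbers pair both sums because they come from the same library. Shares of cells were tested with a 2-sided sign-flip permutation test over libraries (100000 resamples, Python 3.11.15). Intervals are exact binomial. On simulated counts of 15659 genes for the comparison of members with matched cells, the test found 75 of 100 genes changed 1.5-fold and 99 of 100 changed 2-fold, with 2 false calls. Only genes with at least 100 counts were changed, at 1 dispersion of 0.05 and with no difference between libraries. These figures do not carry over to genes with fewer counts or to genes carried by few cells.

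The genes named are the 12 highest and 12 lowest changes past the threshold with at least 100 counts and the same sign in the 3 series, up to 3 genes per list with the smallest adjusted p, all inhibitors, and the pool factors past the threshold. Some of them are not reported. The members, lists and rules were chosen with earlier results of these data known. Alternatives were DESeq2 1.42.0, totals without TMM, other count minimums, no block, other matching and member rules, sets of libraries and cells left out. The 5 microRNAs of the pool were not analysed here.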

Additional observations from a re-analysis of the deposited data

Results flagged for a closer look

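The difference between members and matched cells was not shared by the 3 series of libraries for 2 genes of steroid synthesis, by a test of the difference itself (edgeR's quasi-likelihood F test). Cyp11a1, which makes pregnenolone from cholesterol, had log2 fold changes of -4.26 in the JD libraries, 4.48 in PZ47-PZ48 and -7.51 in PZ58 (adjusted p of the difference 8.01e-06). Star, which carries cholesterol into mitochondria, had -2.18, 1.15 and -5.14 (adjusted p = 0.0192, edgeR). In PZ47-PZ48, members held 112 counts of Cyp11a1 and matched cells 2, while in PZ58 members held 2 and matched cells 510. Over all cells, 11 of the 43 cells with Cyp11a1 held 97.0% of its 1325 counts, and 15 of the 153 cells with Star held 80.4% of its 826 counts. Each of the 2 genes was thus carried by few cells, and into which set those cells fell differed between series.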

How the results depend on the processing

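The calls of genes kept near the same number under DESeq2 (3184 higher, 3862 lower), totals without TMM, no count minimum, no replicate block (3077 higher, 3914 lower), both other member rules and pairs thinned to the lower total. The blocked value is the one reported. Of the genes called, DESeq2 shared 3163 higher and 3717 lower ones. In sets of libraries, which are fewer, higher and lower calls were 2064 and 1929 with high Rps27a, 1805 and 1459 in the PZ58 series, 2166 and 2242 in the PZ47-PZ48 series and 2290 and 2448 in the JD series. Factors found in more and fewer members numbered 0 and 0 in PZ58, where 6 libraries allow no smaller p than 0.03125, 3 and 2 with high Rps27a, and 7 and 8 lower ones in JD and PZ47-PZ48. The 1 higher cell type list became 4 without a limit on depth and 0 without cells of other types, in PZ47-PZ48, PZ58 and with high Rps27a. Pairs without a limit on depth had mean totals of 16694.4 UMIs in members and 14349.6 in matched cells. The 3 lower lists became 0 without a limit on depth, against cells with 0 rule genes, without cells of other types, in each series and in each Rps27a class. For skeletal muscle and mesothelium, the setting without cells of other types fixes this in advance, since it leaves out the cells counted. With pairs thinned to the lower total, 1 list was higher and 3 were lower. The number of factors per cell (-0.31, p = 0.00283) turned to 0.0313 without a limit on depth and missed the threshold against cells with 0 rule genes (-0.14), in JD (-0.21), in PZ58 (-0.17) and with high Rps27a (-0.25). Leaving out Cdkn1a (-0.27), it was 0.0642, -0.10, -0.17, -0.17 and -0.21 there, -0.19 with 6 or more rule genes and -0.23 without cells of other types. In pairs thinned to the lower total, the difference was -0.40 with all factors and -0.37 without Cdkn1a (p = 1.2e-04 and 2.2e-04, permutation test). The share of members per library was 22.6% at 5000 UMIs, 30.8% with 4 and 22.8% with 6 genes. Signs turned for Arpp21 (0.037), Actc1 (0.53) and Mylpf (0.028) without cells of other types, for Gas1 in JD (-0.00071), for Hey1 in PZ58 (2.12 points) and for the mesothelium list in PZ47-PZ48 (0.233 points). Rb1 (-0.0088) turned to values from 0.0025 to 0.13 under 7 settings: 0.0025 with no count minimum, 0.037 without a limit on depth, 0.018 with 6 or more genes, 0.028 without the deepest cells, 0.099 without cells of other types, 0.13 in PZ47-PZ48 and 0.017 with low Rps27a. The cause of these changes was not tested. Some settings hold fewer libraries, and the setting without cells of other types removes cells by muscle genes among others. Counts limit single genes: the simulation missed 25 of 100 changes of 1.5-fold, among genes with at least 100 counts.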
